A study of Mus musculus with 24 samples.

Results

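NRF2 is the transcription factor that drives the antioxidant response, and 10 genes of its pathway were followed through RNA sequencing (RNA-seq) of mouse bone marrow–derived macrophages (BMDM): *Nfe2l2*, which encodes NRF2 itself, *Keap1*, *Hmox1*, *Nqo1*, *Gclc*, *Gclm*, *Txnrd1*, *Srxn1*, *Prdx1* and *Gsr*. They were chosen by name, and each symbol matched 1 identifier among the 56884 genes of the count table. All 10 passed the filter on low counts. The cells came from 4 wild-type female C57BL/6J mice aged 9 weeks, numbered 1, 2, 4 and 5, and had been grown from marrow with macrophage colony-stimulating factor, which every group shared. Each mouse gave 1 library to each of 6 groups, 24 libraries in all. Naive macrophages received nothing further, and a second group received IL-4 and IL-13 (IL-4/IL-13, each at 20 ng/ml) for 24 hours. The remaining groups received an inhibitor for 1 hour and then the same cytokines with the inhibitor. It was tunicamycin (5 µg/ml), which blocks N-linked glycosylation and so burdens the endoplasmic reticulum, or Sal003 (10 µM), which inhibits dephosphorylation of the translation factor eIF2α, or oligomycin (1 µM), which blocks the mitochondrial ATP synthase. There are 2 oligomycin groups, of which 1 also received ISRIB (1 µM), a compound that counteracts the integrated stress response (ISR). The labels conflict on which one. Oligomycin set A received ISRIB by the titles of its libraries and did not by their library names, and oligomycin set B the reverse. No measured value was used to choose between the readings, so every comparison of the sets reads as ISRIB against none by the titles and as none against ISRIB by the library names.

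Under resting conditions the adaptor KEAP1 holds NRF2 for ubiquitination and degradation. Oxidants and electrophiles modify cysteines of KEAP1, NRF2 escapes, pairs with a small MAF protein in the nucleus and binds antioxidant response elements (AREs), so the pathway is governed mainly at the level of NRF2 protein, which RNA-seq does not measure. Its targets make and recycle glutathione (*Gclc*, *Gclm*, *Gsr*), run the thioredoxin and peroxiredoxin system (*Txnrd1*, *Srxn1*, *Prdx1*), break down heme (*Hmox1*) and reduce quinones (*Nqo1*), and in macrophages they limit the damage done by the oxidative burst and by iron from engulfed red cells.

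The letters that an ARE carries at its core, TGACNNNGC, were looked for before the start of the canonical transcript of each gene in GRCm39 (GENCODE) on both strands. They are shown because they are the feature by which NRF2 would recognize these genes. In the 250 bases before the start they were found in 3 of the 10 genes (*Gclm*, *Txnrd1* and *Prdx1*), against 9.68% of 21654 protein-coding genes. *Srxn1* held no such match in that window but the related letters TGAGTCAGC, which 0.296% of the protein-coding genes held. The matches are printed with 10 bases on each side on the plus strand, which is the strand of these 4 genes, and the match is in capitals. Counted from the first base of the capitals to the start, the *Gclm* match (shown in chr3:122039062-122039090) lay 54 bases before it, the *Txnrd1* match (chr10:82694938-82694966) 65 bases, the *Srxn1* match (chr2:151947389-151947417) 45 bases and the *Prdx1* match (chr4:116542653-116542681) 78 bases. The canonical starts of *Txnrd1* and *Prdx1* lie inside the annotated gene, downstream of other transcripts.
Gclm: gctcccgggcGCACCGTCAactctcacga
Txnrd1: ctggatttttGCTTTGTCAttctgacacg
Srxn1: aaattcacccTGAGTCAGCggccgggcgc
Prdx1: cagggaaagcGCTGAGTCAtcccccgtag
In *Gclm*, *Txnrd1* and *Prdx1*, and in the 3 *Hmox1* matches printed below, the ARE letters run on the opposite strand, so the capitals show their reverse complement. The *Srxn1* and *Prdx1* matches also hold the letters of the AP-1 site, TGACTCA, which 4.03% of the protein-coding genes had in the 250 bases. So do the 3 *Hmox1* matches, which lie outside those 250 bases. The letters TGATGNAA, which the ISR factor ATF4 recognizes with its partners, were in none of the 10 windows, against 3.4% of the genes. Within 12000 bases before the start, *Hmox1* had 12 matches to the ARE letters, where the median gene had 3. Of these, 3 fell in 1 window of 300 bases (chr8:75810557-75810856, plus strand, no annotated exon), 9664, 9636 and 9607 bases before the start. At least 3 matches in such a window were found for 2.38% of the protein-coding genes.
Hmox1: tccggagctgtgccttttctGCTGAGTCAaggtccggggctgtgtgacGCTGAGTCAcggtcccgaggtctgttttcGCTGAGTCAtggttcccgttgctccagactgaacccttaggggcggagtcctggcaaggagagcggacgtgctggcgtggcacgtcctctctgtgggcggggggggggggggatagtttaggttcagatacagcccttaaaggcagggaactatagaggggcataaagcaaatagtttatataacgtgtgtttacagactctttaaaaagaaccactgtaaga
A match describes the letters only, and binding was not measured here.

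Between 16238727 and 26725278 reads per library fell on genes. Levels are CPM (a gene's read count scaled to a common, normalized library size), given as mean ± SD over 4 mice, and changes come from edgeR's quasi-likelihood test over the 13679 genes that passed the filter, with Benjamini-Hochberg adjustment over all of them. Calls were made at an adjusted *P* below 0.05. The median coefficient of variation between mice was 7.06%, so small changes passed. The naive library of mouse 2 stood apart from the other naive libraries, and changes with IL-4/IL-13 against naive whose call or size rested on it are also given with that 1 library left out. The macrophage markers were high in sum in every group, with a summed level of 31100 to 36900 CPM in naive libraries and 8780 to 18100 CPM in the others, and all 8 were expressed. Singly they changed: 7 fell with IL-4/IL-13 against naive and none rose, where 30.4% of all genes tested were lower. With tunicamycin against IL-4/IL-13, 4 rose and 3 fell, where 38.7% of all genes tested were higher and 37.6% lower. Erythroid markers reached at most 0.162 CPM in sum, lymphoid markers 1.22 CPM, and mast cell and basophil markers 2.11 CPM. The 7 neutrophil markers summed to 40.6 to 76.6 CPM in naive libraries, 24.1 to 44.4 CPM with IL-4/IL-13, 0.103 to 0.285 CPM with tunicamycin (*Camp* and *Elane* at 0), 5.08 to 8.44 CPM with Sal003, 2.73 to 4.71 CPM in set A (*Camp* and *Elane* at 0) and 18.7 to 24.7 CPM in set B. The 4 stromal markers summed to 18.2 to 137 CPM in naive libraries and 3.51 to 86 CPM in the others. Their part in the changes below was not tested. In bulk RNA, fewer cells of a type and less RNA per cell cannot be told apart.

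With IL-4/IL-13 against naive, 5 of the 10 genes rose (*Nqo1*, *Srxn1*, *Txnrd1*, *Gclc* and *Gsr*), 1 fell (*Prdx1*) and 4, *Nfe2l2* among them, did not pass. Among all genes tested, 60.5% were called in this comparison, 30.1% higher and 30.4% lower, so that 6 of 10 called is close to the background. With tunicamycin against IL-4/IL-13, 5 genes rose (*Gsr*, *Gclm*, *Prdx1*, *Hmox1* and *Gclc*) and 3 fell (*Nfe2l2*, *Nqo1* and *Txnrd1*), where 76.3% of all genes were called, 38.7% higher and 37.6% lower. With Sal003 all 10 passed, 8 lower and 2 higher (*Keap1* and *Prdx1*), where 50.6% of all genes were called, 25.9% higher and 24.6% lower. The median log2 fold change of the 10 genes with Sal003 was -0.37, against 0 over all genes tested. In set A 3 rose (*Gclm*, *Gclc* and *Keap1*) and 4 fell (*Nfe2l2*, *Gsr*, *Nqo1* and *Txnrd1*), with 66.2% of all genes called (34% higher and 32.2% lower), and the median was -0.05 against 0.01. In set B 1 rose (*Keap1*) and 7 fell, with 54.3% of all genes called (27.9% higher and 26.4% lower), and the median was -0.34 against 0. Set A against set B gave 5 higher (*Gclm*, *Hmox1*, *Gclc*, *Srxn1* and *Txnrd1*) and 2 lower (*Nfe2l2* and *Keap1*), with 41.2% of all genes called (19.9% higher and 21.3% lower). No member reached 2.5-fold in any of these comparisons, a size that 11.5% of all genes tested reached with IL-4/IL-13, 22.6% with tunicamycin, 7.71% with Sal003, 12.7% in set A, 7.96% in set B and 2.62% between the sets. The 4 inhibitor comparisons share the IL-4/IL-13 libraries, and each is therefore given with its own values.

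**Figure D1:**
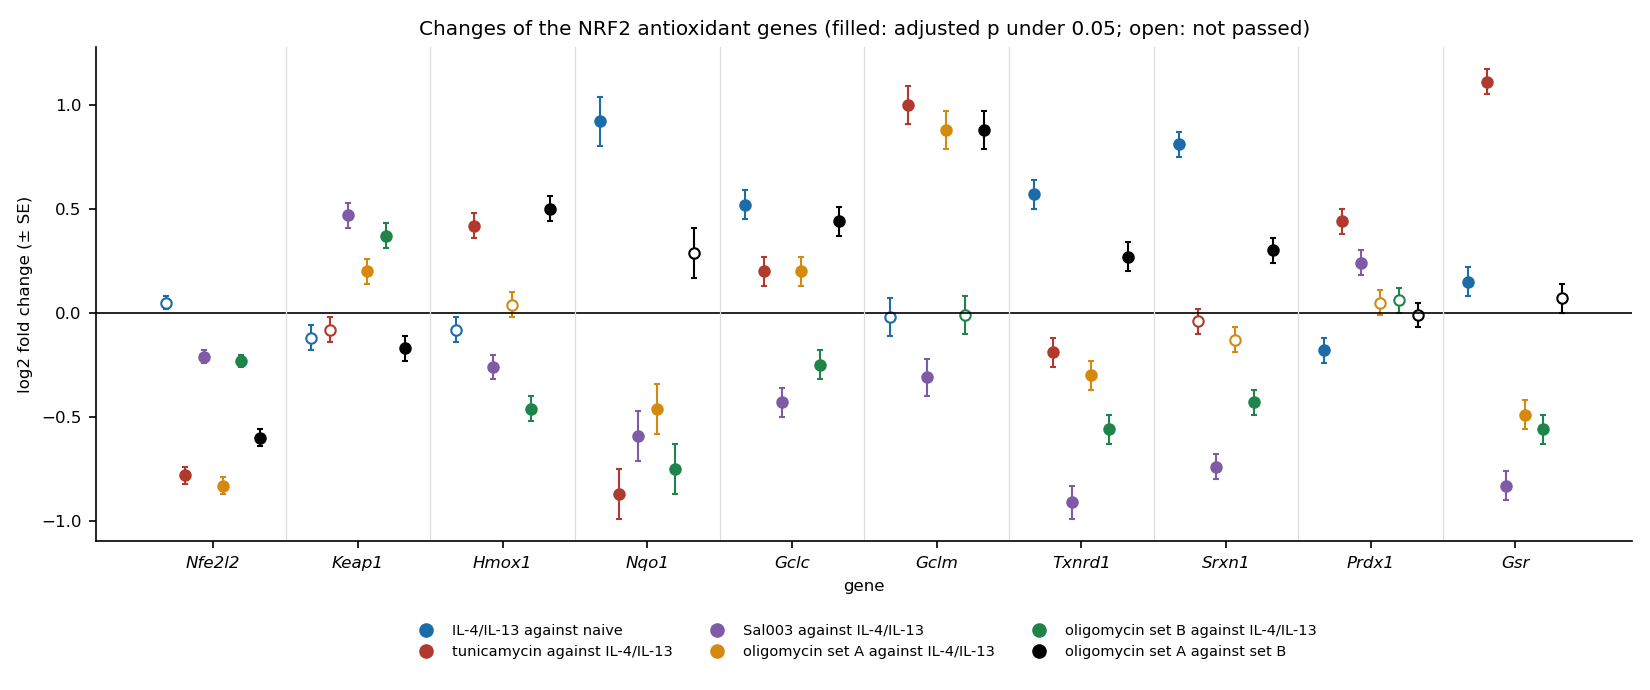
log2 fold changes (± SE) of the 10 genes in 6 comparisons, 4 mice per group, with filled points for an adjusted *P* under 0.05 and open points for the rest. *Gsr* stands at 1.11 with tunicamycin and below 0 with the other inhibitors, and *Gclm* at 1.00 with tunicamycin and 0.88 in set A.

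*Nfe2l2* (ENSMUSG00000015839, chr2:75504739-75534985, minus strand of GRCm39) had close replicates. It read 305, 292, 319 and 309 CPM in the naive libraries of mice 1, 2, 4 and 5 and 318, 313, 314 and 323 CPM with IL-4/IL-13. With tunicamycin it read 188, 179, 186 and 187 CPM in the same order of mice, and in set A 181, 180, 174 and 179 CPM. Sal003 gave 270, 265, 286 and 273 CPM and set B 267, 266, 276 and 271 CPM. The libraries thus fell into 3 levels that did not overlap, with naive and IL-4/IL-13 at the top, Sal003 and set B just below, and tunicamycin and set A far below. The fall was 1.71-fold with tunicamycin (log2 fold change -0.78, SE 0.04, adjusted *P* = 2.9e-16) and 1.78-fold in set A (-0.83, SE 0.04, adjusted *P* = 2.5e-16), against 1.16-fold with Sal003 (adjusted *P* = 1.5e-05) and 1.18-fold in set B (adjusted *P* = 3.7e-06). Set A lay below set B by 1.51-fold (-0.60, SE 0.04, adjusted *P* = 1.5e-12). Neighbors within a level did not pass the test (adjusted *P* = 0.23 for IL-4/IL-13 against naive, 0.76 for set B against Sal003, 0.2 for tunicamycin against set A). With DESeq2 in place of edgeR, the change with IL-4/IL-13 against naive passed as higher (0.07, adjusted *P* = 0.034).

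*Keap1* (ENSMUSG00000003308, chr9:21141026-21150679, minus strand), the repressor of NRF2, stood in another order. Its level was 86.1 ± 3.16 CPM in naive macrophages, 79 ± 2.53 with IL-4/IL-13 and 75 ± 1.02 with tunicamycin. It rose to 110 ± 8.01 CPM with Sal003 (105, 115, 101 and 118 CPM in mice 1, 2, 4 and 5), to 102 ± 10.1 CPM in set B (103, 112, 88.2 and 104 CPM) and to 90.7 ± 3 CPM in set A. Every Sal003 and set B library was above every IL-4/IL-13 library, whose highest was 81.9 CPM. The rise was 1.39-fold with Sal003 (log2 fold change 0.47, SE 0.06, adjusted *P* = 1.9e-07), 1.29-fold in set B (0.37, SE 0.06, adjusted *P* = 6.9e-06) and 1.15-fold in set A (0.20, SE 0.06, adjusted *P* = 0.0041). The last lost its call without mouse 5 (0.16, adjusted *P* = 0.051), as did the difference of set A from set B (-0.17, adjusted *P* = 0.02), which gave adjusted *P* = 0.092, 0.17 and 0.075 without mouse 1, 2 or 5. Exons of 2 genes on the opposite strand, *Gm16754* and *Gm68155*, cover 25.8% of the exonic length of *Keap1*. Whether strand was used in counting is not given in the sources used here, so reads there cannot be told apart.

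Per length, the ratio of *Keap1* to *Nfe2l2* transcripts (TPM, a level scaled by both exon length and library, calculated from counts and exon length) was 0.27 ± 0.0143 in naive and 0.24 ± 0.0103 with IL-4/IL-13. The ratio was 0.389 ± 0.0127 with tunicamycin, 0.386 ± 0.037 with Sal003, 0.363 ± 0.0408 in set B and 0.488 ± 0.00998 in set A, so every inhibitor library lay above all 8 libraries without inhibitor. These ratios are descriptions and were not tested.

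**Figure D2:**
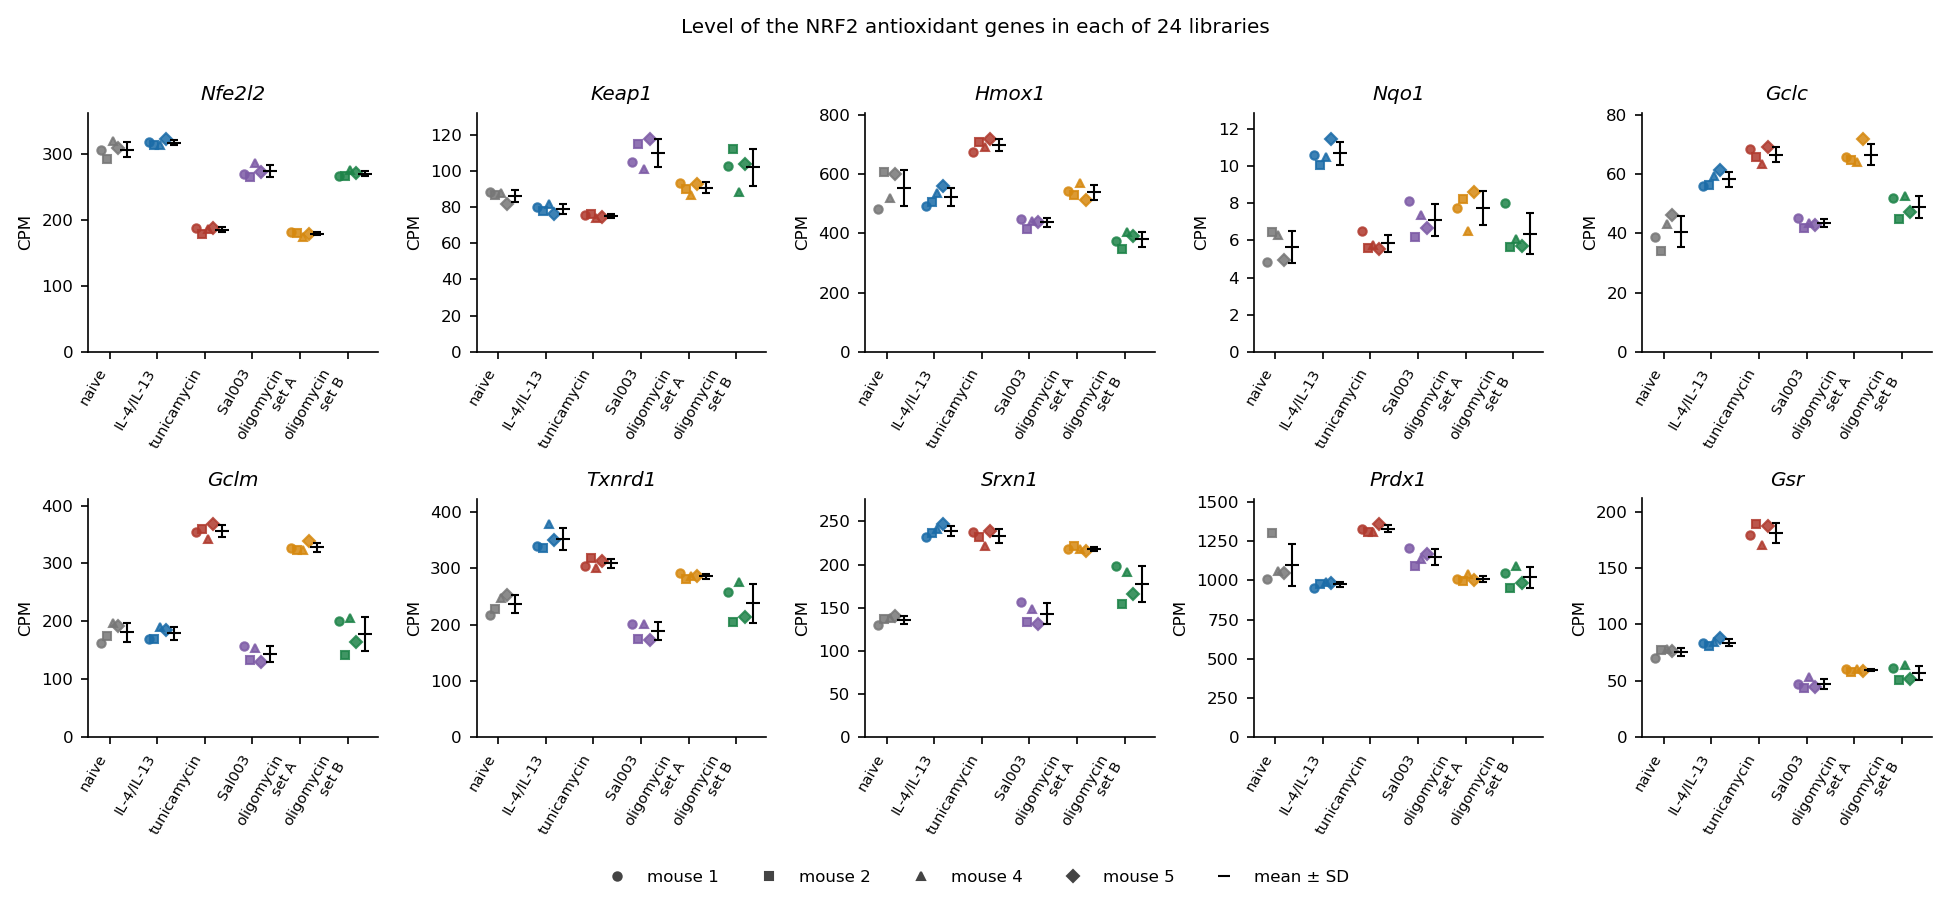
CPM of the 10 genes in each of 24 libraries by group, with 1 marker shape per mouse and the mean ± SD of 4 mice beside each group, on axes that start at 0. *Nfe2l2* lies at 179 to 188 CPM in all 4 tunicamycin libraries and at or above 265 CPM with Sal003.

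The glutathione branch parted into 3 patterns. Glutathione is made by glutamate-cysteine ligase, which is a catalytic subunit (*Gclc*) with a modifier subunit (*Gclm*) that makes it less sensitive to feedback, and *Gsr* encodes the reductase that restores oxidized glutathione. *Gclc* (ENSMUSG00000032350, chr9:77661797-77701770, plus strand) was at 38.8, 34.1, 43.1 and 46.4 CPM in naive libraries of mice 1, 2, 4 and 5 and at 55.9, 56.4, 59.3 and 61.4 CPM with IL-4/IL-13, a rise of 1.43-fold in 4 of 4 mice (log2 fold change 0.52, SE 0.07, adjusted *P* = 5.2e-07). The 2 groups did not overlap. Tunicamycin and set A added 1.15-fold each, to 66.7 ± 2.69 and 66.7 ± 3.66 CPM (adjusted *P* = 0.012 and 0.014). Both calls were lost without mouse 1 (0.19 and 0.18, adjusted *P* = 0.061 and 0.095). Sal003 brought *Gclc* down to 43.4 ± 1.33 CPM (-0.43, SE 0.07, adjusted *P* = 1.4e-05) and set B to 49.1 ± 3.71 CPM (-0.25, SE 0.07, adjusted *P* = 0.004). The Sal003 level did not pass a test against naive (adjusted *P* = 0.25).

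*Gclm* (ENSMUSG00000028124, chr3:122039126-122065061, plus strand) did not pass the test between naive and IL-4/IL-13–treated macrophages (181 ± 15.9 against 179 ± 11.1 CPM, adjusted *P* = 0.84). With tunicamycin it read 354, 360, 342 and 368 CPM in mice 1, 2, 4 and 5 and in set A 326, 324, 324 and 339 CPM. It was lower with Sal003, at 157, 134, 154 and 130 CPM, and in set B, at 200, 142, 205 and 164 CPM. The tunicamycin and set A libraries all lay above 320 CPM and the other 16 at or below 205 CPM. The rise was 1.99-fold with tunicamycin (log2 fold change 1.00, SE 0.09, adjusted *P* = 1.4e-10) and 1.84-fold in set A (0.88, SE 0.09, adjusted *P* = 2.3e-09), and set A exceeded set B by 1.85-fold (0.88, SE 0.09, adjusted *P* = 8.9e-09). Sal003 lowered *Gclm* 1.24-fold (-0.31, SE 0.09, adjusted *P* = 0.0041), a call lost without mouse 5 (-0.25, adjusted *P* = 0.064). In set B the change was -0.01 (SE 0.09, adjusted *P* = 0.96), with 2 mice higher and 2 lower. Of the exonic length of *Gclm*, 12.6% is shared with genes of the opposite strand and 6.2% with *Gm6061* on the same strand. The per-length ratio of *Gclm* to *Gclc* was 3.55 ± 0.36 in naive and 2.42 ± 0.0768 in IL-4/IL-13–treated macrophages, 4.2 ± 0.11 with tunicamycin and 3.88 ± 0.119 in set A, against 2.61 ± 0.188 with Sal003 and 2.84 ± 0.273 in set B.

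*Gsr* (ENSMUSG00000031584, chr8:34142551-34188192, plus strand) had the largest change of any member against IL-4/IL-13, and it went one way with tunicamycin and the other with the remaining inhibitors. It read 83.1, 80.7, 84 and 87.9 CPM with IL-4/IL-13 in mice 1, 2, 4 and 5 and 179, 189, 170 and 187 CPM with tunicamycin. Sal003 gave 47.4, 43.6, 53.2 and 44.7 CPM, set A 60.6, 58.2, 60.7 and 59 CPM and set B 61.3, 51.1, 63.7 and 51.4 CPM. No library of an inhibitor group overlapped the IL-4/IL-13 libraries, a separation that 50.3% to 73.9% of all genes tested showed in the single comparisons. The rise with tunicamycin was 2.16-fold (log2 fold change 1.11, SE 0.06, adjusted *P* = 4.7e-14), and the falls were 1.78-fold with Sal003 (-0.83, SE 0.07, adjusted *P* = 1.6e-10), 1.41-fold in set A (-0.49, SE 0.07, adjusted *P* = 4e-07) and 1.48-fold in set B (-0.56, SE 0.07, adjusted *P* = 8.7e-08). Compared directly, tunicamycin exceeded Sal003 by 3.84-fold, set A by 3.04-fold and set B by 3.19-fold (adjusted *P* = 1.4e-18, 7.7e-17 and 2.3e-17). The sets did not pass a test against each other (0.07, SE 0.07, adjusted *P* = 0.43). IL-4/IL-13 raised *Gsr* 1.11-fold over naive (adjusted *P* = 0.044), a call lost without mouse 1 (adjusted *P* = 0.18) or mouse 5 (0.11).

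In the thioredoxin branch, *Txnrd1* encodes the reductase that recharges thioredoxin, *Prdx1* a peroxiredoxin that removes peroxide, and *Srxn1* sulfiredoxin, which repairs peroxiredoxins that peroxide has overoxidized. *Srxn1* (ENSMUSG00000032802, chr2:151947436-151957687, plus strand) read 130, 137, 138 and 140 CPM in naive libraries of mice 1, 2, 4 and 5 and 232, 237, 241 and 247 CPM with IL-4/IL-13. All 4 mice rose, by 1.76-fold (log2 fold change 0.81, SE 0.06, adjusted *P* = 3.3e-11), with a gap between the groups far wider than either. With tunicamycin the level was 233 ± 7.72 CPM and in set A 218 ± 2.26 CPM, neither of which passed against IL-4/IL-13 (adjusted *P* = 0.57 and 0.065), although the 4 set A libraries lay below all 4 IL-4/IL-13 libraries. Sal003 returned *Srxn1* to 157, 134, 149 and 131 CPM (-0.74, SE 0.06, adjusted *P* = 3.5e-10), which did not pass against naive (0.07, SE 0.06, adjusted *P* = 0.34). Set B lay between, at 198, 154, 192 and 166 CPM (-0.43, SE 0.06, adjusted *P* = 2.3e-06 against IL-4/IL-13, and 0.38, adjusted *P* = 9.4e-06 against naive).

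*Txnrd1* (ENSMUSG00000020250, chr10:82669785-82733546, plus strand) rose 1.49-fold with IL-4/IL-13, from 218, 228, 248 and 252 to 340, 337, 379 and 351 CPM in mice 1, 2, 4 and 5 (log2 fold change 0.57, SE 0.07, adjusted *P* = 3.2e-07). Every inhibitor group was below IL-4/IL-13, without overlap. The fall was 1.87-fold with Sal003, to 201, 175, 202 and 173 CPM (-0.91, SE 0.08, adjusted *P* = 2.5e-10), and that level lay below naive as well (-0.33, SE 0.07, adjusted *P* = 0.00043). Set B fell 1.48-fold to 258, 205, 276 and 214 CPM (-0.56, SE 0.07, adjusted *P* = 5.6e-07), which did not pass against naive (0.01, adjusted *P* = 0.93). Set A fell 1.23-fold to 286 ± 4.39 CPM (adjusted *P* = 0.001) and tunicamycin 1.14-fold to 309 ± 8.47 CPM (adjusted *P* = 0.026). The tunicamycin call was lost without mouse 1, 4 or 5 (adjusted *P* = 0.11, 0.13 and 0.1), or without the naive library of mouse 2, which also enters the estimate of the spread (0.063). Set A exceeded set B 1.2-fold (adjusted *P* = 0.0055), a call lost without mouse 5 (0.22, adjusted *P* = 0.063).

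*Prdx1* (ENSMUSG00000028691, chr4:116532123-116558398, plus strand) varied within a narrower range. It read 1010, 1300, 1060 and 1050 CPM in naive libraries, of which mouse 2 stood apart, and 951, 978, 989 and 986 CPM with IL-4/IL-13. The resulting fall of 1.13-fold (log2 fold change -0.18, SE 0.06, adjusted *P* = 0.012) lost its call without the naive library of mouse 2 (-0.08, adjusted *P* = 0.15), without all libraries of mouse 2 (-0.09, adjusted *P* = 0.087) and without mouse 5 (-0.19, adjusted *P* = 0.053). Tunicamycin raised *Prdx1* to 1330, 1310, 1310 and 1360 CPM, 1.36-fold (0.44, SE 0.06, adjusted *P* = 3e-07), and Sal003 to 1150 ± 51.8 CPM, 1.18-fold (0.24, SE 0.06, adjusted *P* = 0.0015). Neither oligomycin set passed (adjusted *P* = 0.44 for set A and 0.4 for set B). Of the sequence of *Prdx1*, 17.4% of all stretches of 50 bases also occur in transcripts of other genes, and 13.8% of its exonic length overlaps *AV051173* on the opposite strand. The naive library of mouse 2 was also the highest of its group for *Fth1* (16900 against 12300 to 12700 CPM), *Prdx5* (385 against 242 to 273 CPM), *Blvrb* (267 against 188 to 194 CPM), *Txn1* (174 against 123 to 127 CPM) and *Gpx4* (160 against 107 to 114 CPM).

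*Hmox1* (ENSMUSG00000005413, chr8:75820241-75827217, plus strand) encodes heme oxygenase 1, which opens heme to biliverdin, iron and carbon monoxide. Per length it and *Prdx1* were the most abundant members, at 1520 ± 149 TPM in naive macrophages against 1280 ± 84.1 TPM for *Prdx1*. It read 482, 608, 521 and 601 CPM in naive libraries and 492, 506, 536 and 561 CPM with IL-4/IL-13, which overlap (adjusted *P* = 0.29). Tunicamycin raised it to 676, 711, 691 and 721 CPM, 1.34-fold (log2 fold change 0.42, SE 0.06, adjusted *P* = 1.7e-06). Sal003 lowered it 1.2-fold to 450, 416, 443 and 438 CPM (-0.26, SE 0.06, adjusted *P* = 0.0011) and set B 1.38-fold to 375, 349, 405 and 391 CPM (-0.46, SE 0.06, adjusted *P* = 8.7e-07). Set A, at 544, 529, 571 and 513 CPM, did not pass against IL-4/IL-13 (0.04, SE 0.06, adjusted *P* = 0.58), and it exceeded set B 1.42-fold without overlap (0.50, SE 0.06, adjusted *P* = 4.7e-07).

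*Nqo1* (ENSMUSG00000003849, chr8:108113835-108129934, minus strand), the quinone reductase often used as the readout of NRF2, was the least abundant member per length (9.91 TPM in naive macrophages against 31.5 TPM for *Gclc*, the next), with 99 to 200 reads per library. IL-4/IL-13 raised it 1.90-fold, from 4.83, 6.48, 6.32 and 4.96 to 10.6, 10.1, 10.5 and 11.5 CPM in mice 1, 2, 4 and 5 (log2 fold change 0.92, SE 0.12, adjusted *P* = 3.2e-07). It was the largest rise of a member with the cytokines. Every inhibitor group lay below IL-4/IL-13 without overlap. The falls were 1.82-fold with tunicamycin, to 6.52, 5.57, 5.78 and 5.55 CPM (-0.87, SE 0.12, adjusted *P* = 4.4e-07), 1.68-fold in set B (-0.75, SE 0.12, adjusted *P* = 7.5e-06), 1.5-fold with Sal003 (-0.59, SE 0.12, adjusted *P* = 0.00017) and 1.37-fold in set A (-0.46, SE 0.12, adjusted *P* = 0.0012). Against naive, tunicamycin and set B did not pass (adjusted *P* = 0.69 and 0.23), while Sal003 (7.1 ± 0.844 CPM) and set A (7.77 ± 0.915 CPM) stayed higher (adjusted *P* = 0.022 and 0.0016). Set A against set B gave 0.29 (SE 0.12, adjusted *P* = 0.055). This difference passed with a block for the mouse (0.30, adjusted *P* = 0.046) and without mouse 1 (0.43, adjusted *P* = 0.012). It also passed with upper-quartile normalization (0.33, adjusted *P* = 0.029), with library totals alone (0.41, adjusted *P* = 0.006) and without the naive library of mouse 2 (0.30, adjusted *P* = 0.039).

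Ordered by mean level, the 6 groups gave 5 neighboring pairs per gene, 50 in all, of which 21 differed and 29 did not pass. The order came from the same values as the tests, and no share over all genes was calculated for such pairs. These counts are therefore descriptions and set the members apart from no other genes. For *Nqo1* only the step from IL-4/IL-13 to set A passed, and the remaining groups from set A down to naive formed a run of steps that did not. For *Gsr* 4 of 5 steps passed, all but that between the 2 oligomycin sets.

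**Figure D3:**
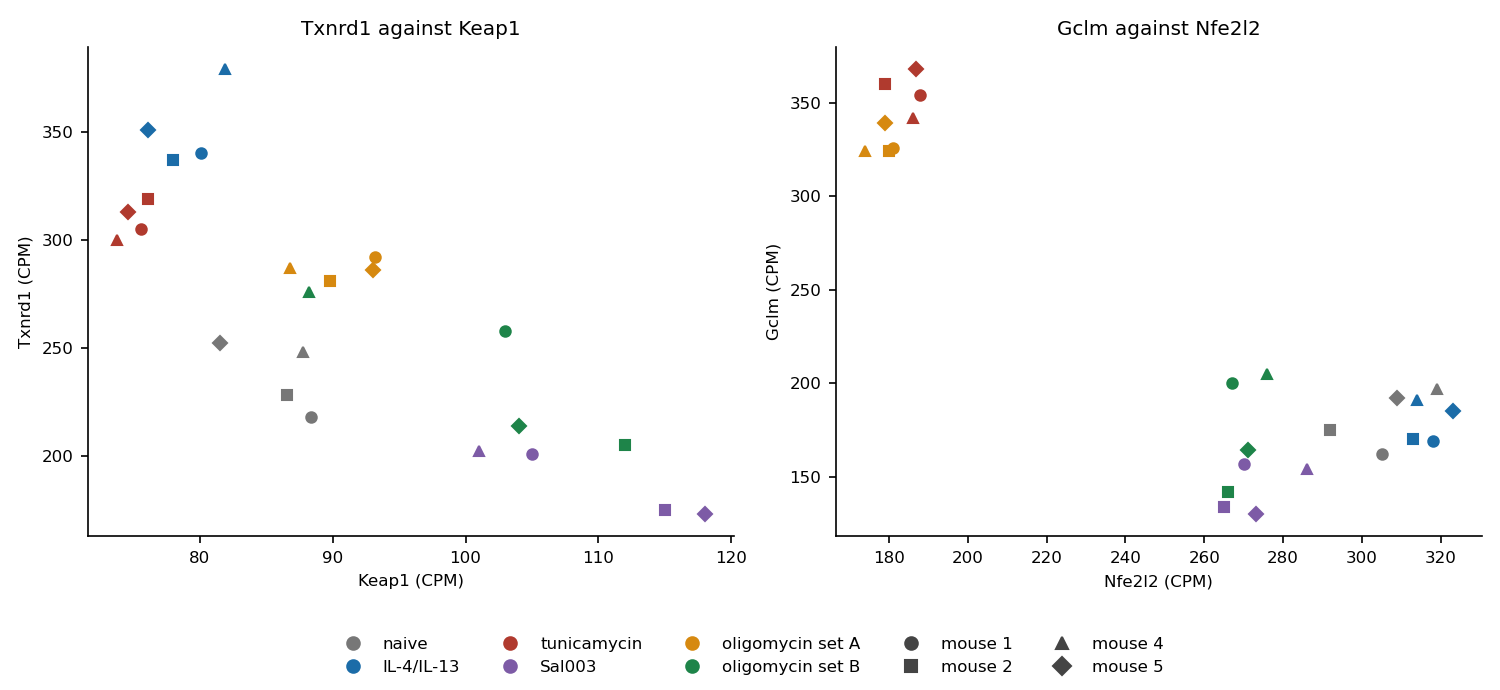
*Txnrd1* against *Keap1* and *Gclm* against *Nfe2l2* in 24 libraries (CPM), colored by group, with 1 marker shape per mouse. High *Keap1* goes with low *Txnrd1*, and the tunicamycin and set A libraries form a cloud of low *Nfe2l2* (174 to 188 CPM) and high *Gclm* (324 to 368 CPM) apart from the other 16.

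Across the 24 libraries, which share mice and treatments and are therefore not independent points, the members did not move as 1 block. The log2 CPM values of *Gclc* and *Srxn1* had a Pearson *r* of 0.91, those of *Txnrd1* and *Srxn1* 0.89, those of *Hmox1* and *Gsr* 0.83, and those of *Gclc* and *Gclm* 0.82. *Keap1* ran against *Txnrd1* (-0.85), *Gsr* (-0.84) and *Hmox1* (-0.82). *Nfe2l2* and *Gclm* split into the clusters described above, so that no single *r* is given for them. Most alike to *Keap1* among all genes tested, by *r* over the same libraries, were *H2-T22* (0.95), *B2m* (0.94) and *Usp18* (0.94), genes of antigen presentation and of the interferon response. *H2-T22* averaged 91.3 CPM with IL-4/IL-13, 68.2 with tunicamycin, 226 in set A, 295 in set B and 330 with Sal003. Most alike to *Gsr* were *Spn* (0.99), *Dhx40* (0.97) and *Herpud1* (0.96), the last a gene of endoplasmic reticulum–associated degradation, which averaged 70.2 CPM with IL-4/IL-13, 1160 with tunicamycin, 51.6 in set A, 47.5 in set B and 34.1 with Sal003. *Spn* averaged 310 CPM with tunicamycin and 14.9 to 40.1 CPM in the other groups, so for both genes the tunicamycin libraries stood apart. Most alike to *Gclm* were *Txnrd3* (0.95), *Gm16548* and *Pnrc2* (0.94 each). *Gm16548* was near the floor, at 0 CPM in every naive and IL-4/IL-13 library and at most 1.09 CPM with tunicamycin. *Txnrd3*, a relative of *Txnrd1*, averaged 5.05 CPM with IL-4/IL-13, 11.4 with tunicamycin and 11.7 in set A, against 5 with Sal003 and 6.07 in set B.
Most alike to *Nfe2l2* were *Cyth4*, *Prkch* and *Marchf1* (0.98 each), to *Srxn1* *Add3* (0.96) and *Grk5* (0.93), and to *Prdx1* *Srp14* (0.94), *Park7* (0.92) and *Dad1* (0.90). For *Gclc* they were *Recql4*, *Plk4* and *Add3* (0.93 each), for *Txnrd1* *Spred2* and *Anln* (0.91 each) and *Fsd1l* (0.90), for *Hmox1* *Ehbp1l1* (0.92), *Rit1* (0.91) and *Zfp869* (0.90), and for *Nqo1* *Fkbp5*, *Anxa2* and *Zyx* (0.87 each).

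Mice differed within some groups and hardly at all in others. *Gclm* had an SD of 29.9 CPM in set B and 7.44 CPM in set A, and *Txnrd1* of 34.2 and 4.39 CPM. In both Sal003 and set B, mice 1 and 4 were above mice 2 and 5 for *Gclm*, *Txnrd1*, *Srxn1*, *Gsr*, *Gclc* and *Nqo1*, and below them for *Keap1*. This was noticed after the values had been seen and has no test. The SD of log2 CPM of *Gclm* in set B was 0.25, which exceeded that of 76% of the genes tested, and in Sal003 it was 0.14, which exceeded 61.4%. *Usp18* read 106, 127, 77.9 and 126 CPM in set B and 110, 118, 83.9 and 142 CPM with Sal003 in mice 1, 2, 4 and 5, and *H2-T22* read 258, 349, 221 and 353 CPM and 311, 351, 239 and 419 CPM, so both were also lower in mice 1 and 4. Both had been picked for their likeness to *Keap1* over these same libraries, so this is not a separate observation. *Fcgr1* was picked from the 8 macrophage markers, also after its values were seen. It read 269, 414, 189 and 403 CPM in set B and 312, 375, 220 and 469 CPM with Sal003. The 8 markers together summed to 13400 to 15300 CPM in set B and 13800 to 15600 CPM with Sal003. Values of the other markers by mouse are not given here. The part of these genes in the spread of the members was not tested.

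**Figure D4:**
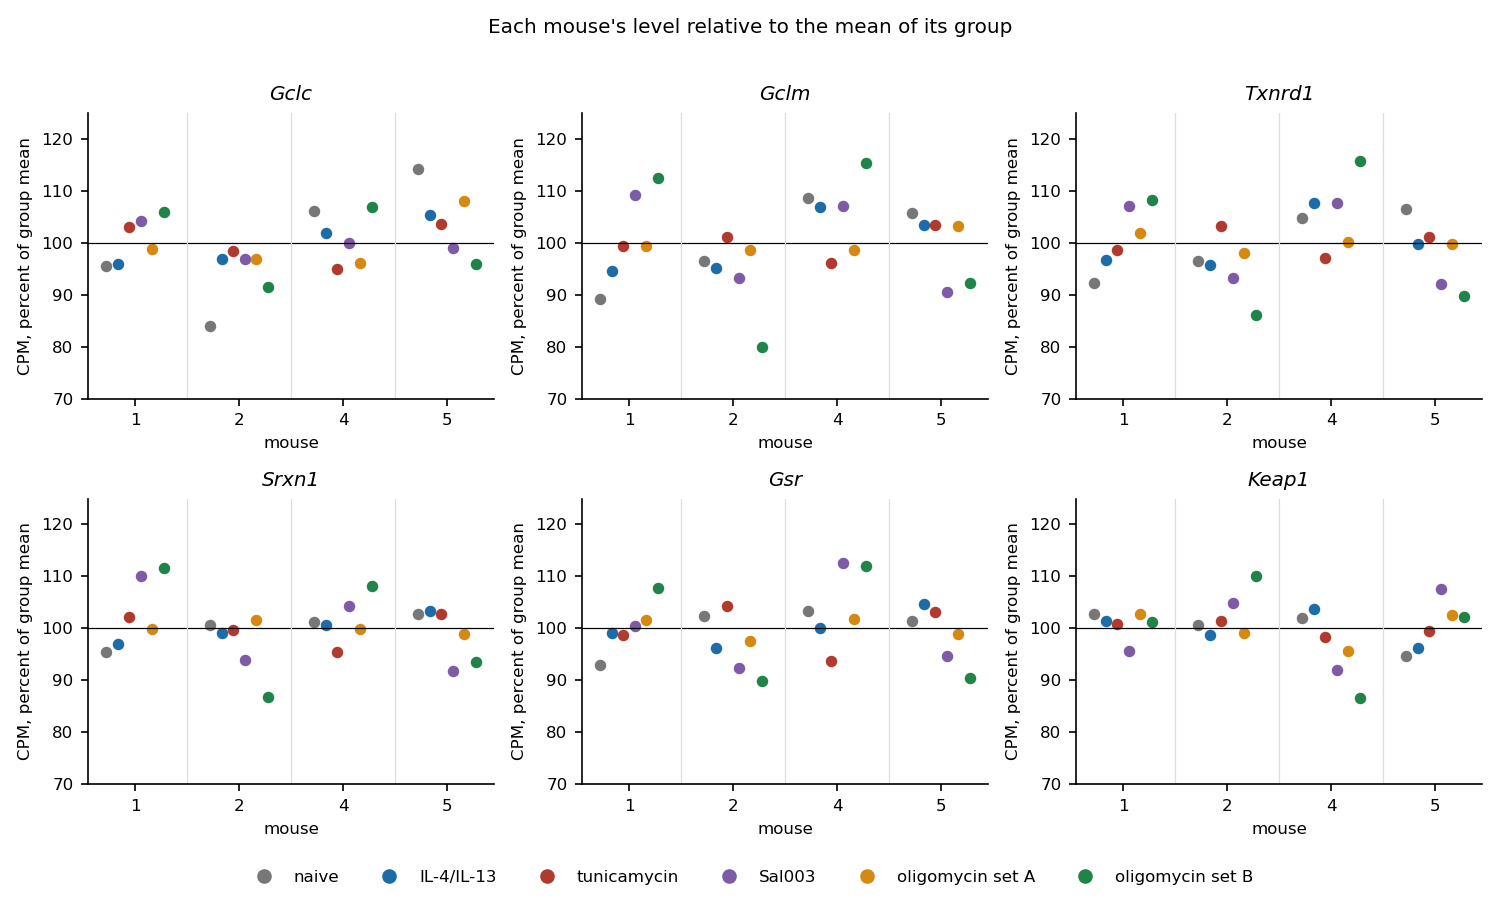
CPM of 6 genes in each mouse as a percentage of the mean of its group, colored by group. In Sal003 and set B, mice 1 and 4 lie above mice 2 and 5 for *Gclm*, *Txnrd1*, *Srxn1*, *Gsr* and *Gclc* and below them for *Keap1*. For *Gclm* and *Txnrd1* the tunicamycin and set A points stay closer to 100.

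Around the 10 genes, transcripts of proteins that govern NRF2 were tested as a list of 10. With IL-4/IL-13, 1 rose and 4 fell against naive, where 30.1% of all genes were higher and 30.4% lower. With the inhibitors none fell. With tunicamycin 8 rose (38.7% of all genes were higher), with Sal003 5 (25.9%), in set B 6 (27.9%) and in set A 5 (34%). The shares over all genes given with the 10 members are also the background of every list that follows, for the counts from all 24 libraries. For list counts with a mouse or library left out, no share over all genes was calculated. *Sqstm1* encodes p62, which sequesters KEAP1 for autophagy and is itself an NRF2 target. It read 481, 491, 508 and 509 CPM with IL-4/IL-13 in mice 1, 2, 4 and 5, 3700, 3960, 3680 and 3790 CPM with tunicamycin, 1170, 1120, 1210 and 1240 CPM in set B, 2390, 2480, 2520 and 2550 CPM in set A and 733, 694, 671 and 773 CPM with Sal003. No 2 of these groups overlapped, and the log2 fold changes against IL-4/IL-13 were 2.93, 1.25, 2.32 and 0.53 in that order (SE 0.06 each, adjusted *P* = 2.9e-23, 2.2e-15, 1.1e-20 and 1.3e-08). *Mafg*, a small MAF partner of NRF2, rose with tunicamycin (1.34, SE 0.05, adjusted *P* = 8.1e-18), in set A (0.83, adjusted *P* = 3.4e-13), in set B (0.34, adjusted *P* = 3.1e-06) and with Sal003 (0.17, adjusted *P* = 0.0068), the last call being lost without mouse 1 (0.15, adjusted *P* = 0.055). These rises of *Sqstm1* and *Mafg* started from levels below naive. With IL-4/IL-13 against naive, *Sqstm1* fell (-0.52, SE 0.06, adjusted *P* = 8.3e-09), as did *Mafg* (-0.52, SE 0.05, adjusted *P* = 2.3e-09). *Bach1*, the repressor that competes with NRF2 for AREs, fell with IL-4/IL-13 (-0.63, SE 0.07, adjusted *P* = 3.4e-08) and rose with tunicamycin (0.28, SE 0.07, adjusted *P* = 0.00094), while the changes with the other inhibitors were between -0.06 and 0.12 and did not pass. Without the naive library of mouse 2 the Sal003 change passed (0.11, adjusted *P* = 0.041).

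Of 15 further glutathione genes 14 were tested. With IL-4/IL-13 5 rose and 5 fell, and 8 rose and 5 fell without the naive library of mouse 2. With tunicamycin 8 rose and 5 fell, with Sal003 7 and 3, in set A 7 and 4, and in set B 7 and 2. *Slc7a11*, the cystine importer, is a target of both NRF2 and ATF4. It rose 3.26-fold with IL-4/IL-13, from 4.5 ± 1.27 to 14.7 ± 1.8 CPM (log2 fold change 1.70, SE 0.16, adjusted *P* = 8.5e-10), and rose further with tunicamycin to 37.3 ± 2.65 CPM (1.34, SE 0.13, adjusted *P* = 8.5e-10). Set A and set B gave 18.9 ± 1.51 and 19.7 ± 3.78 CPM (adjusted *P* = 0.019 and 0.011), and Sal003 11.7 ± 1.31 CPM (adjusted *P* = 0.052, or 0.022 without the naive library of mouse 2). The set A call was lost without mouse 1 or 5 (adjusted *P* = 0.14 and 0.1) and the set B call without mouse 1 (adjusted *P* = 0.17). Its partner chain *Slc3a2* rose from 202 ± 10.6 CPM to 2910 ± 120 with tunicamycin, 1100 ± 41 in set A, 668 ± 41.2 in set B and 514 ± 66.1 with Sal003 (log2 fold changes 3.85, 2.45, 1.73 and 1.35, adjusted *P* = 3.2e-23, 3.5e-19, 6.4e-16 and 7e-14). *Chac1*, which degrades glutathione and is an ATF4 target, had 3 to 10 reads per IL-4/IL-13 library and reached 43 ± 0.834 CPM with tunicamycin, 24.5 ± 0.907 in set A, 18.3 ± 0.885 in set B and 2.17 ± 0.557 with Sal003. Among the 5 groups with cytokines, these 2 genes had the same order of mean levels as *Atf4*, which was at 136 ± 8.74 CPM with IL-4/IL-13, 1090 ± 19.4 with tunicamycin, 704 ± 3.28 in set A, 478 ± 19.9 in set B and 206 ± 30.8 with Sal003. The order was not particular to them, since the changes of *Sqstm1* and *Mafg* against IL-4/IL-13 ranked the inhibitor groups in the same way. All 3 of the ISR reference genes tested rose in each inhibitor group. *Gss*, the second enzyme of glutathione synthesis, rose from 14 ± 1.35 to 16.9 ± 1.17 CPM with IL-4/IL-13 (0.27, adjusted *P* = 0.0019) and further to 20.5 ± 0.981 with tunicamycin (0.28, adjusted *P* = 8e-04) and 19.4 ± 1.41 in set A (0.20, adjusted *P* = 0.015, lost without mouse 1, 4 or 5 at adjusted *P* = 0.055, 0.1 and 0.13). *Gpx4*, which removes lipid peroxides, passed none of the 6 tests (adjusted *P* 0.13 to 0.89), but without the naive library of mouse 2 it passed with IL-4/IL-13 (0.25, adjusted *P* = 3.8e-05), in set A against IL-4/IL-13 (0.14, adjusted *P* = 0.0054) and in set A against set B (0.13, adjusted *P* = 0.012).

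Among 11 further thioredoxin and peroxiredoxin genes, 5 rose and 4 fell with IL-4/IL-13, 3 and 4 with tunicamycin, 4 and 4 with Sal003, 3 and 6 in set A and 2 and 4 in set B. Without mouse 1, the 5 higher with IL-4/IL-13 became 2. *Txn1*, the substrate of the *Txnrd1* product, rose 0.20 with IL-4/IL-13 and 0.20 with Sal003 on the log2 scale (SE 0.07 each, adjusted *P* = 0.021 and 0.03). Without the naive library of mouse 2 the first was 0.35 (SE 0.04, adjusted *P* = 1.4e-07). Both calls were lost without mouse 1, 4 or 5 (adjusted *P* = 0.16, 0.12 and 0.11 with IL-4/IL-13, and 0.16, 0.057 and 0.21 with Sal003). *Txnip*, which binds and inhibits thioredoxin, fell with IL-4/IL-13 from 1650 ± 34.7 to 1020 ± 45.4 CPM (-0.70, SE 0.04, adjusted *P* = 4.7e-13). It fell again with Sal003 (410 ± 10.1 CPM), in set B (448 ± 19.3 CPM) and in set A (502 ± 9.92 CPM; log2 fold changes -1.31, -1.18 and -1.02, SE 0.04 each, adjusted *P* = 3e-17, 7.7e-17 and 2.5e-16), but was at 969 ± 49.6 CPM with tunicamycin (-0.07, SE 0.04, adjusted *P* = 0.14). *Prdx5* fell with IL-4/IL-13 (-0.35, SE 0.09, adjusted *P* = 0.0015), and by less without the naive library of mouse 2 (-0.17, SE 0.05, adjusted *P* = 0.0051).

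The 9 heme and iron genes gave 2 higher and 4 lower with IL-4/IL-13 (5 and 4 without the naive library of mouse 2), 1 and 7 with tunicamycin, 4 and 4 with Sal003, 2 and 5 in set A and 3 and 5 in set B. *Fth1*, ferritin heavy chain, fell with IL-4/IL-13 from 13500 ± 2240 to 7370 ± 78.5 CPM (-0.88, SE 0.07, adjusted *P* = 8e-11) and rose with every inhibitor, to 19600 ± 198 CPM with tunicamycin, 18300 ± 864 in set B, 17000 ± 929 with Sal003 and 15800 ± 276 in set A (log2 fold changes 1.41, 1.31, 1.21 and 1.10, SE 0.07 each, adjusted *P* = 3.2e-15, 1.1e-13, 5.7e-13 and 9.8e-13). *Slc40a1*, the iron exporter ferroportin, fell with IL-4/IL-13 from 178 ± 21 to 28.9 ± 2.71 CPM (-2.63, SE 0.10, adjusted *P* = 1.4e-17) and lower still in each inhibitor group, to 13.8 to 21 CPM on average. *Blvrb*, biliverdin reductase B, fell in every inhibitor group, by 0.85 in set A, 0.67 with Sal003, 0.57 in set B and 0.32 with tunicamycin on the log2 scale (SE 0.08 each, adjusted *P* = 1.7e-09, 2e-07, 2e-06 and 0.00088). With IL-4/IL-13 *Blvrb* and *Ftl1*, ferritin light chain, did not pass (adjusted *P* = 0.14 and 0.3) but did so without the naive library of mouse 2 (0.29 and 0.17, adjusted *P* = 0.00014 and 0.012). *Ftl1* was higher with Sal003 (0.42, adjusted *P* = 7.8e-06), in set B (0.25, adjusted *P* = 0.0022) and in set A (0.17, adjusted *P* = 0.025) and lower with tunicamycin (-0.16, adjusted *P* = 0.029). The set A call was lost without mouse 1, 4 or 5 (adjusted *P* = 0.083, 0.14 and 0.06) and the tunicamycin call without mouse 1, 2 or 5 (adjusted *P* = 0.26, 0.095 and 0.079).

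**Figure D5:**
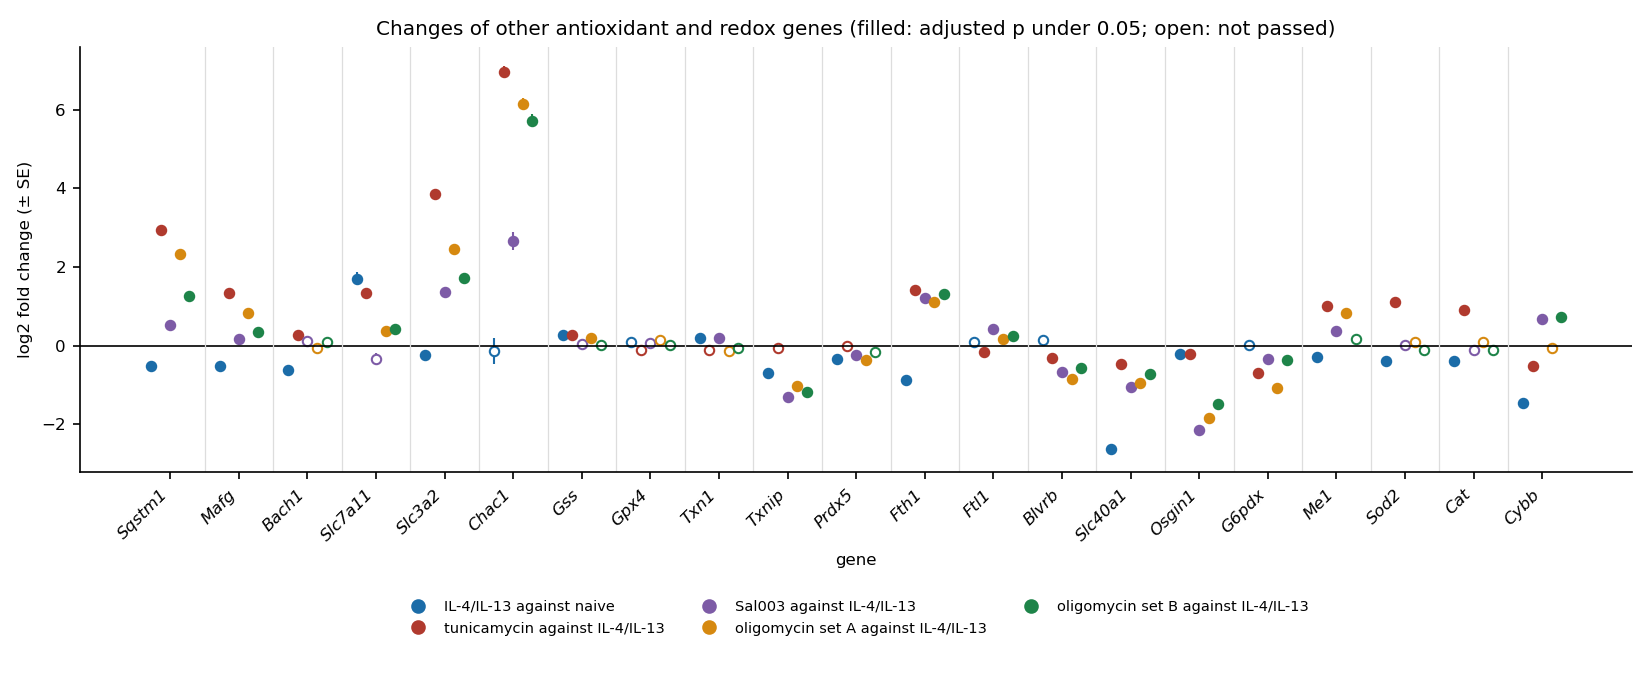
log2 fold changes (± SE) of 21 further antioxidant and redox genes in 5 comparisons, with filled points for an adjusted *P* under 0.05. *Chac1*, *Slc3a2* and *Sqstm1* lie above 0 in all 4 inhibitor groups, and *Osgin1* lies at -2.14 with Sal003 and -0.21 with tunicamycin.

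Of 10 genes of quinone and aldehyde detoxification, 2 rose and 5 fell with IL-4/IL-13 (4 and 3 without the naive library of mouse 2), 2 and 8 with tunicamycin, 4 and 5 with Sal003, 2 and 7 in set A and 2 and 6 in set B. *Osgin1*, an NRF2 target, was at 23.8 ± 1.32 CPM with IL-4/IL-13 and fell to 5.41 ± 0.48 with Sal003, 8.52 ± 0.63 in set B and 6.6 ± 0.868 in set A (-2.14, -1.48 and -1.85, SE 0.09 each, adjusted *P* = 2.8e-15, 4.4e-13 and 3.3e-15), and to 20.5 ± 1.96 with tunicamycin (-0.21, SE 0.08, adjusted *P* = 0.021), a call lost without mouse 1, 4 or 5 (adjusted *P* = 0.1, 0.087 and 0.12). Of 7 genes that supply NADPH, the reductant on which *Txnrd1*, *Gsr* and *Nqo1* products draw, 3 rose and 1 fell with IL-4/IL-13, and 1 and 6, 2 and 4, 1 and 5, and 0 and 4 did so with tunicamycin, Sal003, set A and set B. Without mouse 1, 4 or 5, the counts with IL-4/IL-13 became 2 and 0. Without mouse 1, the 2 higher with Sal003 became 0. *G6pdx*, which opens the pentose phosphate pathway, fell from 387 ± 18.1 CPM to 184 ± 5.45 in set A, 239 ± 5.69 with tunicamycin, 302 ± 8.08 in set B and 308 ± 12.3 with Sal003 (-1.08, -0.70, -0.36 and -0.33, SE 0.05 each, adjusted *P* = 4.1e-16, 7.8e-13, 3.8e-07 and 1.7e-06). *Me1*, malic enzyme, went up with tunicamycin (1.01, SE 0.09, adjusted *P* = 3.7e-10), in set A (0.84, SE 0.09, adjusted *P* = 2e-08) and with Sal003 (0.36, SE 0.10, adjusted *P* = 0.0034), the last call being lost without mouse 1 (0.26, adjusted *P* = 0.054).

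Enzymes that remove superoxide and peroxide directly were a list of 4, of which none rose and 3 fell with IL-4/IL-13, 2 rose and 2 fell with tunicamycin, and none rose and 1 fell in each of the other inhibitor groups. *Sod2* and *Cat*, the mitochondrial superoxide dismutase and catalase, rose with tunicamycin, from 78.4 ± 1.99 to 168 ± 10.1 CPM and from 422 ± 25.2 to 794 ± 27.5 CPM (1.10, SE 0.05, adjusted *P* = 1.1e-16, and 0.91, SE 0.07, adjusted *P* = 2.7e-11), and with the other inhibitors gave adjusted *P* = 0.066 to 0.85 and 0.21 to 0.31. Without the naive library of mouse 2 *Sod2* passed in set B as lower (-0.12, adjusted *P* = 0.031). On the producing side, 1 of 6 genes of the phagocyte NADPH oxidase rose and 4 fell with IL-4/IL-13. For this oxidase the number higher was 0 without mouse 1, 4 or 5 and 2 without the naive library of mouse 2. *Cybb*, its catalytic subunit, fell from 1760 ± 326 to 636 ± 95.7 CPM (-1.47, SE 0.10, adjusted *P* = 2.8e-12). It rose with Sal003 and in set B to 1020 ± 46.4 and 1050 ± 44.1 CPM (0.67 and 0.73, SE 0.10 each, adjusted *P* = 2.9e-06 and 8.5e-07), fell with tunicamycin to 440 ± 34.9 CPM (-0.53, adjusted *P* = 3.2e-05) and did not pass in set A (-0.05, adjusted *P* = 0.66). Between the oligomycin sets, 4 of the 10 NRF2 control genes were higher in set A and none lower, 6 and 4 of the 14 glutathione genes, 2 and 4 of the 11 thioredoxin and peroxiredoxin genes, none and 6 of the 9 heme and iron genes, none and 8 of the 10 detoxification genes, 1 and 5 of the 7 NADPH genes, 2 and 1 of the 4 removal enzymes, and none and 4 of the 6 oxidase genes.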

How the data were processed

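The authors' steps were adapter trimming (Cutadapt 1.8), filtering of ribosomal and low-complexity sequences, alignment to GRCm39 (STAR 2.7) and counting by gene (htseq-count 0.9.1), and the raw counts they deposited were the input here. The deposited TPM table was not used, because its header names more columns than its lines hold. TPM values were calculated here from counts and exonic length. Between 12.74% and 15.23% of the reads of a library were assigned to no gene and left out. Counts were tested with edgeR 4.0.16 in R 4.3.3 (TMM, filterByExpr, quasi-likelihood test, 1 model over 24 libraries, no block) and Benjamini-Hochberg adjustment over 13679 genes. The *P* values measure the spread between mice. Correlations used log2 CPM with a prior count of 2. The workflow was also run on simulated counts, with independent libraries and few genes changed. That run does not cover the sharing of mice or the wide changes between groups here.

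The members and the lists were chosen with earlier results of these data known. The 10 members were named in full, other genes from a list of 24 pathway genes, and for each member the 3 genes most alike over 24 libraries, of which 1 is not reported here. *Ddit3* has 2 identifiers and was not reported. Same-numbered libraries share a mouse, and the median correlation of their deviations from group means was 0.24 (56 of 60 pairs above 0.1, against 7 of 180 pairs of different mice). Alternatives were DESeq2 1.42.0, upper-quartile normalization, library totals alone and leaving out the naive library of mouse 2 (both chosen after seeing the data), all genes with a read (27890), genes with 10 or more reads in each library (11017), a model of just the 2 groups, a 2-fold threshold, the mouse as a block, and leaving out each mouse. Annotation was GENCODE on GRCm39, in which 56323 identifiers were found.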

Additional observations from a re-analysis of the deposited data

Results flagged for a closer look

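In 60 groups of 4 libraries, 1 for each member and condition, 2 held a library that lay far from the other 3. Chance alone gives about 1 such group in 20. *Prdx1* in the naive library of mouse 2 was at 1300 CPM, against 1010 to 1060 CPM in the other 3 (the gap was 0.84 of the range of the group), and without mouse 2 its change with IL-4/IL-13 was -0.09 on the log2 scale in place of -0.18. *Gclm* in the set A library of mouse 5 was at 339 CPM, against 324 to 326 CPM (0.86 of the range), and its change in set A was called with each mouse left out.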

How the results depend on the processing

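Of the 60 fold changes of members, 40 kept their direction and their side of the threshold under every alternative run. Over 720 alternative values, 669 did so, 25 lost the call, 14 gained it and 12 turned direction, all of the last from changes that were not called. The number of members lower with IL-4/IL-13 than naive (1) was 2 with upper-quartile normalization, 0 without the filter on low counts, 0 with only the groups compared and 0 to 2 with each mouse left out. The number lower in set A than set B (2) was 1 with upper-quartile normalization, with only the groups compared and with library totals alone, and 1 to 2 with each mouse left out. With tunicamycin 1 member, *Gsr*, passed a 2-fold threshold where none passed 2.5-fold. The turned values were, on the log2 scale, *Gclm* with IL-4/IL-13 (0 with DESeq2, 0.01 without the filter, -0.03 to 0 with each mouse left out), *Srxn1* with tunicamycin (0 without the filter and 0 with library totals), *Gclm* in set B (-0.11 to 0.06 with each mouse left out, above 0 without mouse 2 or, at 0.04, mouse 5), *Prdx1* in set B (-0.01 with library totals) and *Prdx1* in set A against set B (0.03 with upper-quartile normalization, -0.03 to 0.02 with each mouse left out, 0.11 with library totals). Library totals moved the median of all genes in that comparison by 0.11. The cause of these shifts was not tested. Apart from the mice and library named in the report, calls were lost for *Prdx1* with IL-4/IL-13 (without the filter, and with only the groups compared), *Gsr* with IL-4/IL-13 (upper-quartile), *Txnrd1* with tunicamycin (without the filter, and library totals) and *Keap1* in set A against set B (upper-quartile, only the groups compared, and library totals, which gave -0.05). *Srxn1* in set A against IL-4/IL-13 gained a call under 4 alternatives, among them DESeq2 (-0.16, adjusted *P* = 0.02). *Nfe2l2* with IL-4/IL-13 gained a call with DESeq2 (0.07, adjusted *P* = 0.034). *Keap1* with IL-4/IL-13 did so with upper-quartile normalization (-0.14, adjusted *P* = 0.046) and without mouse 4 (-0.13, adjusted *P* = 0.044). With only the groups compared, *Keap1* passed with tunicamycin (-0.10, adjusted *P* = 0.016). *Gsr* in set A against set B passed with library totals (0.19, adjusted *P* = 0.018).

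Blocking on the mouse that gave the paired libraries changed 1 call among the members: *Nqo1* in set A against set B passed (0.30, adjusted *P* = 0.046).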
